A study of Mus musculus with 4 samples.

Results

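RNA polymerase II is built from subunits that it shares with RNA polymerases I and III and from subunits found in it alone. The genes described here are the 7 that encode the subunits found in RNA polymerase II only: Polr2a (RPB1), Polr2b (RPB2), Polr2c (RPB3), Polr2d (RPB4), Polr2g (RPB7), Polr2i (RPB9) and Polr2j (RPB11). They were taken by symbol from a table of 30282 mouse genes, and all 7 were present and had enough reads to be among the 14928 genes tested. The libraries were made from poly(A) RNA of V6.5 mouse embryonic stem cells in which RPB3 carried a mini auxin-inducible degron (mAID) and GFP. All cells received doxycycline at 1 µg/ml for 12 h, which induces TIR1, the F-box protein that targets the degron for destruction once auxin is added. The untreated group (2 libraries) received nothing further, and the IAA group (2 libraries) then received 500 µM of the auxin IAA for 12 h, per the sample labels; another sentence of the labels gives 1 h of depletion. The labels name no clone and report no protein level, so how much RPB3 remained is not known from these data. The comparison gives the mRNA levels of the polymerase's own subunits after its RPB3 subunit was targeted.

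RPB1 and RPB2 form the catalytic cleft, and the long carboxy-terminal repeat domain of RPB1 recruits factors that cap, splice and terminate transcripts. RPB3 and RPB11 form a heterodimer that scaffolds the assembly of the enzyme, RPB4 and RPB7 form a stalk that can leave the core, and RPB9 sits at the jaw and contributes to accuracy and to the response to arrest. Values are normalised read counts, that is reads per gene divided by 1 factor per library. The libraries held 8724737 to 9194432 recovered reads, and the mean chi-square per gene (1 degree of freedom, near 1 for counting error alone) was 1.40 and 1.24 between replicates and 9.38 to 9.89 between groups. Nothing in the labels says that replicates were separate cultures, and the p-values rest on differences among these libraries that may be technical. In bulk RNA a change within cells and a change in the mix of cells cannot be told apart. The 8 embryonic stem cell markers examined lay between 3077 and 12264 in every library, and in the limma fit described below 3 were called higher and 3 lower after IAA. Klf4 (0.52) and Nanog (0.33) rose and Dppa5a (-0.36) and Pou5f1 (-0.24) fell on the log2 scale, beside -0.27 to 0.46 in the 7 subunit genes. Of 7 fibroblast feeder markers, 4 were in the table, with summed values of 191 and 242 in the untreated and 117 and 135 in the IAA libraries. The 2 of them with enough reads to be tested were both called lower, Thy1 (84 to 167 per library) by limma at -0.78 and Col1a1 (30 to 69) at -0.76, and Col3a1 was read at 0 to 2. Summed values were 196 and 188 against 185 and 217 for 5 primitive endoderm markers, and 310 and 331 against 387 and 359 for the 5 germ layer markers in the table, of which Eomes was called higher (0.29). The part of these cells in the results was not tested.

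The start-proximal sequences of 5 of the 7 genes are shown, those that had an entry among the RefSeq starts used. Of these, Polr2a, Polr2c and Polr2j were called higher, Polr2i lower and Polr2b neither. Each run is the 100 bases before the RefSeq transcription start on GRCm38.p6, 5′ to 3′ on the gene's strand, with matches to 4 motifs in capitals. The letters searched, on both strands, were TATAAA for a TATA box, CCAAT for the motif of NF-Y, GGGCGG for a GC box and CCGGAAG for the core of ETS factors. Polr2d and Polr2g had no entry. The GENCODE annotation used below starts some of these genes earlier than RefSeq does. By its starts (77310147 for Polr2b, 30231948 for Polr2i), the windows of Polr2b and Polr2i lie wholly inside the annotated gene. Most of the Polr2j window also does (GENCODE start 136116631), including its opposite-strand CCAAT and its CCGGAAG. Which start these cells use was not tested.
Polr2a, chr11:69758634-69758733, minus strand: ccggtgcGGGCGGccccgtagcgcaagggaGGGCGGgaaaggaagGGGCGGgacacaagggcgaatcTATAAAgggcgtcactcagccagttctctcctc
Polr2c, chr8:94857350-94857449, plus strand: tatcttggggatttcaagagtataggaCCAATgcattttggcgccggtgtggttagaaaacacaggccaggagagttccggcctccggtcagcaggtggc
Polr2j, chr5:136116591-136116690, plus strand: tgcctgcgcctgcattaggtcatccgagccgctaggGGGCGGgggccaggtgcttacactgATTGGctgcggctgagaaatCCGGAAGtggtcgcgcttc
Polr2b, chr5:77310384-77310483, plus strand: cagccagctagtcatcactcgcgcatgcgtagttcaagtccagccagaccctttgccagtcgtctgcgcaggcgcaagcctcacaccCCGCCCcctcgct
Polr2i, chr7:30231974-30232073, plus strand: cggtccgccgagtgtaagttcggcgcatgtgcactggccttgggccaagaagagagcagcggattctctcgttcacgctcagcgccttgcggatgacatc

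No motif was shared by Polr2a, Polr2c and Polr2j, the 3 genes called higher that had an entry. Polr2d, also called higher, could not be searched. Polr2a held the only TATAAA, at bases -33 to -28 from the start, and 3 GC boxes. TATAAA was found in 5.6% of the 32851 RefSeq windows of this length. GGGCGG was present in Polr2a, Polr2j and, on the opposite strand, Polr2b, against 24.7% of all windows. CCAAT was present in Polr2c and, on the opposite strand, in Polr2j, against 18.9%. Polr2j also held CCGGAAG at bases -19 to -13, which 4.5% of windows hold. The Polr2i window held none of the 4. The GC content was 54.0% in Polr2c and 61.0% to 66.0% in the other 4, against a median of 55.0% over all windows. These matches describe the letters only.

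After IAA, 4 of the 7 subunit genes were higher, 1 was lower and 2 did not pass. Polr2j, Polr2a, Polr2d and Polr2c rose, by 1.14-fold to 1.37-fold, and Polr2i fell to 0.829 of its untreated level. Calls are at an adjusted p under 0.05 in limma, with Benjamini-Hochberg adjustment over all genes tested. In that fit 11.1% of all genes tested were called higher and 28.9% lower. The median log2 fold change of the 7 genes was 0.19, against -0.11 over all genes tested. The 2 groups did not overlap for 6 of the 7 genes, a pattern that 68.1% of all genes tested also showed. The plot of values by library shows these small steps against a range of levels that spans from 228 to 12286.

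**Figure D1:**
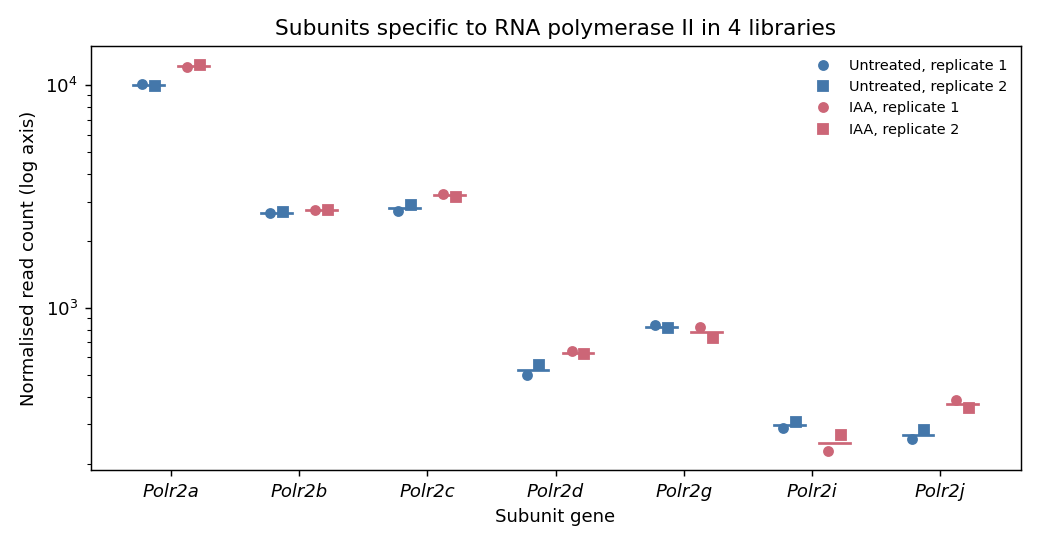
Normalised read counts (log axis) of the 7 subunit genes in the 2 untreated (blue) and 2 IAA (red) libraries, with the group mean as a bar. The IAA points of Polr2a, Polr2c, Polr2d, Polr2j and, narrowly, Polr2b lie above both untreated points. Those of Polr2i lie below, and those of Polr2g overlap.

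Polr2a (ENSMUSG00000005198, chromosome 11, 69733997 to 69758637, GRCm38, 29 exons in its principal transcript) encodes RPB1, which holds the active site with RPB2. It was read at 10073 and 9868 in the untreated libraries and at 12035 and 12286 in the IAA libraries. Both IAA libraries lay well above both untreated ones, and replicates differed by far less than the groups. The means were 9970.5 ± 145 and 12160.5 ± 178 (SD, n = 2 each), and the log2 fold change was 0.29 with an SE of 0.03 (limma adjusted p = 3.256e-07). Of all genes tested, 11.9% had a higher log2 fold change. Polr2a was the only one of the 7 that also passed in the authors' deposited table, with a log2 fold change of 0.29 (SE 0.06) and an adjusted p of 5.08e-05. That table calls 2.47% of its 11495 genes with an adjusted p higher and 9.57% lower at 0.05. Its up or down label was given to none of the 7; all 81 genes that carry it have a log2 fold change of 1.0 or more in size.

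Polr2b (ENSMUSG00000029250, chromosome 5, 77310147 to 77349324), the partner of Polr2a in the catalytic cleft, stayed within a narrow band. It was read at 2655 and 2692 in the untreated and at 2760 and 2739 in the IAA libraries. The groups did not overlap, but the step was small: the log2 fold change was 0.04 (95% interval -0.04 to 0.13; limma adjusted p = 0.457). The ratio of Polr2a to Polr2b inside a library, which does not depend on how libraries are scaled to each other, was 1.92 and 1.87 on the log2 scale in the untreated and 2.12 and 2.16 in the IAA libraries. The 2 large subunits thus moved apart by 0.25, with a largest gap of 0.05 between replicates. With median-of-ratios factors, which set the median of all genes near 0, Polr2b was called higher, at 0.14 (limma adjusted p = 0.00275).

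Polr2c (ENSMUSG00000031783, chromosome 8, 94857450 to 94873535) encodes RPB3, the subunit carrying the degron. Its mRNA was read at 2726 and 2885 in the untreated and at 3242 and 3158 in the IAA libraries. The IAA libraries were the higher ones, so the transcript of the targeted protein was not lost. The log2 fold change was 0.19 (SE 0.04, 95% interval 0.10 to 0.28; limma adjusted p = 0.00116), and with median-of-ratios factors it was 0.29, above that interval. In the authors' deposited table, at 0.19, the adjusted p was 0.113. The degron acts on the protein, so this level does not check the labels. By distance between profiles of log2(value + 1), centred on the mean of the 4 libraries, the genes nearest to Polr2c among 2585 with a mean of at least 1000 were Glul (0.014), Rnf44 (0.018), Kmt2d (0.019), Zdhhc3 (0.021) and Yap1 (0.022). Their log2 fold changes ran from 0.17 to 0.20, and 4 libraries in 2 groups leave little pattern beyond that step.

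Polr2j (ENSMUSG00000039771, chromosome 5, 136116631 to 136122947) encodes RPB11, the partner of RPB3 in the assembly heterodimer. It was read at 257 and 283 in the untreated and at 387 and 355 in the IAA libraries. Both IAA libraries were higher, by more than either pair of replicates differed, and 6.1% of all genes tested had a higher log2 fold change. This was the widest change of the 7, at 0.46 (SE 0.09; limma adjusted p = 0.000441), with means of 270.0 ± 18.4 and 371.0 ± 22.6 (SD, n = 2 each). The pooled reads, 472 and 716, give 0.29 to 0.63 as the exact 95% binomial interval of the log2 ratio, which covers counting error only. In the authors' deposited table the adjusted p was 0.129. The log2 ratio of Polr2c to Polr2j was 3.40 and 3.35 in the untreated and 3.06 and 3.15 in the IAA libraries, so the gene of the untargeted partner gained on that of the targeted one by 0.27 on this scale.

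Of the genes of the stalk pair, Polr2d rose and Polr2g did not pass. Polr2d (ENSMUSG00000024258, chromosome 18, 31789159 to 31796701), which encodes RPB4, was read at 498 and 552 in the untreated and at 639 and 620 in the IAA libraries. The groups were apart, by 0.26 on the log2 scale with an SE of 0.07 (limma adjusted p = 0.00575). The adjusted p in the authors' deposited table was 0.293. Polr2g (ENSMUSG00000071662, chromosome 19, 8793127 to 8798577), which encodes RPB7, was read at 840 and 809 in the untreated and at 819 and 733 in the IAA libraries. Its groups overlapped, and the log2 fold change was -0.09 (95% interval -0.22 to 0.05; limma adjusted p = 0.291). With median-of-ratios factors this value changed sign, to 0.01, and again did not pass. The log2 ratio of Polr2d to Polr2g was -0.75 and -0.55 in the untreated and -0.36 and -0.24 in the IAA libraries, a difference of 0.35 against a largest gap of 0.20 between replicates.

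Polr2i (ENSMUSG00000019738, chromosome 7, 30231948 to 30233390), the most compact of the 7 genes, encodes RPB9. It was read at 289 and 309 in the untreated and at 228 and 269 in the IAA libraries. The IAA libraries were the lower ones, with a gap of 41 between them that exceeds the gap of 20 between the groups. The means were 299.0 ± 14.1 and 248.5 ± 29.0 (SD, n = 2 each), and the log2 fold change was -0.27 with an SE of 0.10 (limma adjusted p = 0.0369). The reads, 523 and 479 in the pooled groups, allow -0.45 to -0.09 by counting error alone. This call was lost with median-of-ratios factors, where the log2 fold change was -0.17 (limma adjusted p = 0.164), and in the authors' deposited table (adjusted p = 0.482). Of all genes tested, 69.0% had a higher log2 fold change than Polr2i.

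**Figure D2:**
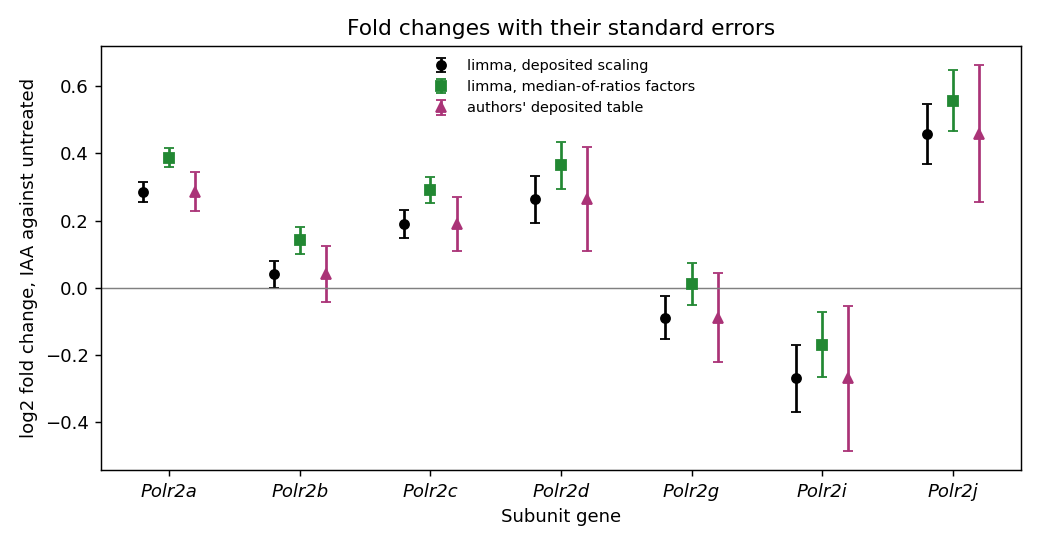
Log2 fold change (IAA against untreated) of each subunit gene with its standard error, from limma at the deposited scaling (black), from limma with median-of-ratios factors (green) and from the authors' deposited table (purple). The estimates of limma and of the authors nearly coincide, the authors' bars are longer, and median-of-ratios factors lift each of the 7 genes by about the same step.

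Which genes were called differed between scalings, tests and sets of libraries. Relative to their geometric mean, the factors of the table were 0.958 and 0.947 (untreated) and 1.07 and 1.03 (IAA). Those computed as medians of ratios from the same reads were 0.988, 0.992, 1.04 and 0.994 in the same order. With the latter the median of all genes tested was -0.01 and that of the 7 genes 0.29. There 5 of the 7 were higher and 0 lower by limma, against 20.3% and 20.5% of all genes, and the 5 were also the only ones with an unadjusted p under 0.05 in that limma fit. The standard errors in the authors' deposited table were 1.95 to 2.26 times those of limma for these genes. Leaving out any 1 of the 4 libraries ended every call among the 7 in limma, as it did for all other genes. The signs of the 5 called genes stayed the same in those fits, but their size moved. Polr2a stayed at 0.27 to 0.30, Polr2j ran from 0.39 to 0.53, Polr2d from 0.19 to 0.34 and Polr2c from 0.15 to 0.23. Polr2i moved most, to -0.15 without the first IAA library and -0.39 without the second.

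**Figure D3:**
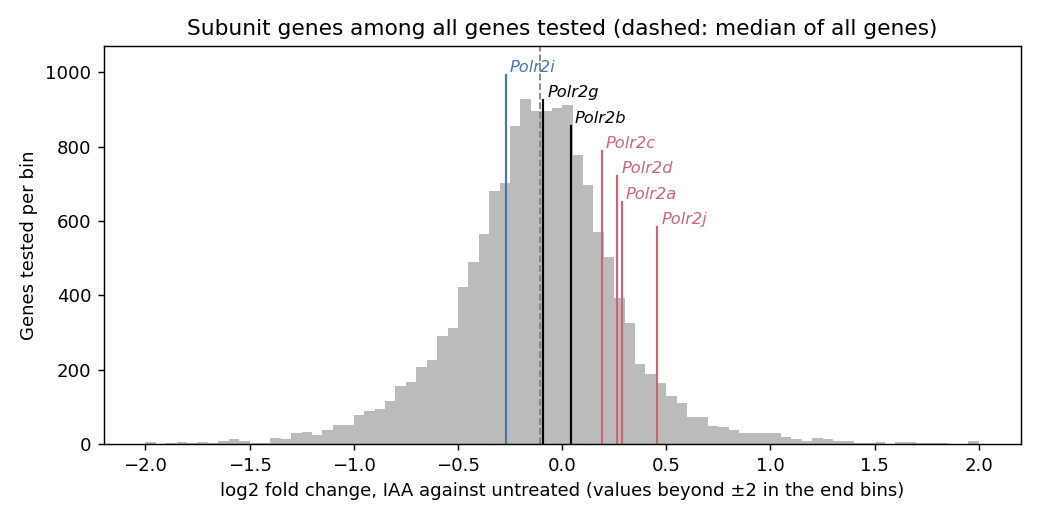
Distribution of log2 fold changes over the 14928 genes tested (grey bars, genes per bin), with the 7 subunit genes as lines, red where called higher, blue where called lower and black where not called. Polr2j, Polr2a, Polr2d, Polr2c and Polr2b stand right of the dashed median of all genes (-0.11). Polr2g stands just right of it, and Polr2i stands left of it.

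Ratios between subunit genes inside each library remove the factor between libraries. Over all 21 pairs, the untreated and IAA libraries did not overlap for 19, and for 17 the difference exceeded the largest gap between replicates. Over all pairs of the 9727 genes with a mean of at least 100, a level that all 7 members exceed, 74.5% did not overlap and 65.1% exceeded that gap. The 21 pairs reuse the same 7 genes and are not independent. The widest difference was that of Polr2i to Polr2j, whose log2 ratio was 0.17 and 0.13 in the untreated and -0.76 and -0.40 in the IAA libraries. In reads not divided by length, Polr2i was thus the higher of the pair in both untreated libraries and the lower in both IAA libraries. Per kilobase, this reversal depended on the length used. With the principal transcript Polr2j was already the higher in the untreated libraries (418 against 365). With all annotated exons (244 against 247) or the longest transcript (300 against 365) it was the lower there. At the other end, the ratio of Polr2a to Polr2d differed by 0.02 and its groups overlapped, with a largest gap of 0.18 between replicates. With 2 libraries against 2, the smallest two-sided p of the exact permutation test is 0.333 before any adjustment over the 21 pairs, so no pair could pass.

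**Figure D4:**
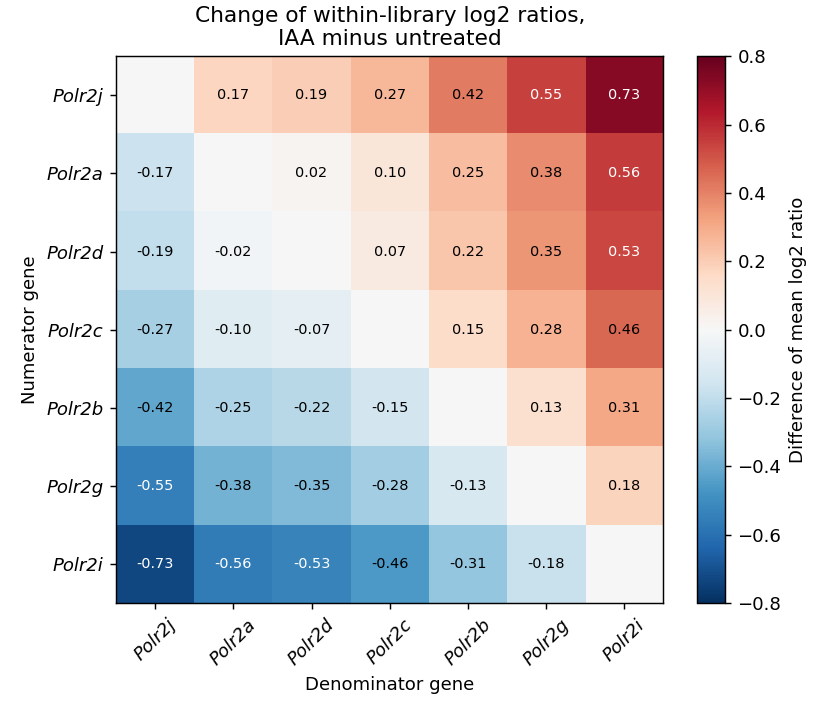
Difference between groups (IAA minus untreated) of the mean log2 ratio of each pair of subunit genes within a library, with the numerator in rows and the denominator in columns. Genes are ordered by their log2 fold change, and the corner cells of Polr2j against Polr2i hold the widest difference, 0.73.

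Levels of different genes can be compared only per length, and here the order depended on which transcript length was used. Per kilobase of annotated exon, Polr2a was highest at 1411 ± 20.5 normalised reads in the untreated and 1721 ± 25.1 in the IAA libraries (SD, n = 2 each). Polr2g followed at 661 ± 17.6 and 622 ± 48.8. Polr2b, Polr2c and Polr2d lay between 517 and 620 in both groups. Polr2g, Polr2d, Polr2c and Polr2b ran from 622 down to 589 after IAA, with SDs of 48.8, 13.2, 11.3 and 3.18, so neighbours in that order mostly differed by less than their spread. Polr2i and Polr2j were the lowest, at 247 ± 11.7 and 244 ± 16.6 in the untreated libraries, where they differed by less than their spread, and at 205 ± 23.9 and 335 ± 20.5 after IAA. Polr2c was the gene most affected by the length. Its exons cover 5256 bases over 7 annotated transcripts, whereas the principal transcript has 1580, and with that length its level was 1776 ± 71.2 and 2025 ± 37.6, above Polr2a at 1479 ± 21.5 and 1804 ± 26.3.

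**Figure D5:**
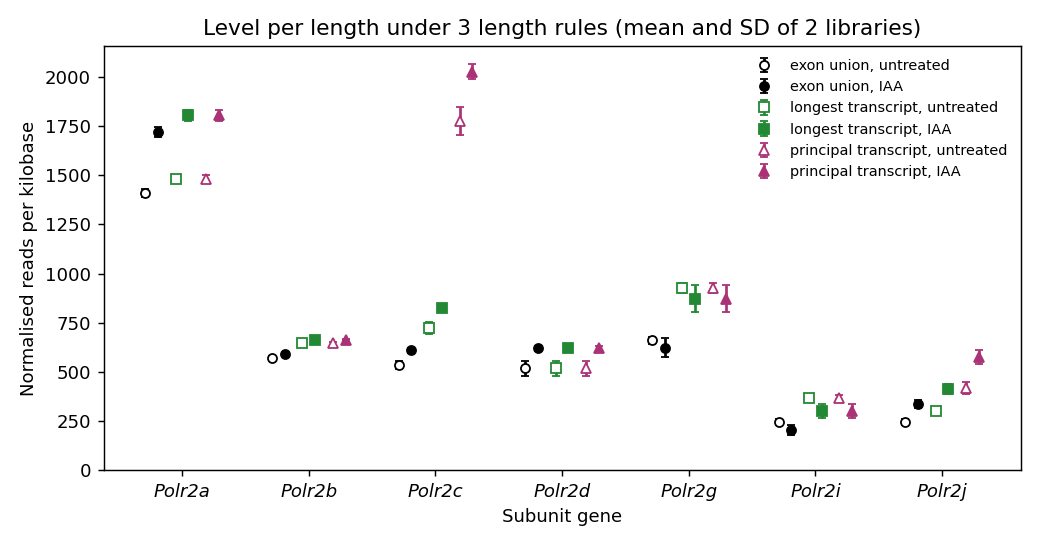
Normalised reads per kilobase of each subunit gene (mean and SD of 2 libraries) in untreated (open) and IAA (filled) cells, with the exon union, the longest transcript or the principal transcript as length. Polr2a is highest with the exon union, Polr2c with the principal transcript, and Polr2i and Polr2j lie lowest within each group under all 3 rules.

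Part of the exon sequence of 4 of the genes is shared with a gene on the opposite strand, and whether reads were counted by strand is not given in the sources used here. Polr2i shares 26.8% of its exon bases with Tbcb, Polr2c 18.1% with Dok4, Polr2j 15.9% with Lrwd1 and Polr2b 1.82% with Igfbp7. Dok4 was read at 57 to 67 and Igfbp7 at 59 to 74 per library, far below the subunit genes they overlap. Their part in the Polr2c and Polr2b values was not tested. Lrwd1 was read at 826 and 828 in the untreated and at 764 and 802 in the IAA libraries (log2 fold change -0.08, limma adjusted p = 0.314; 0.02 with median-of-ratios factors, where it did not pass either). The part of Lrwd1 reads in the Polr2j value was not tested. Tbcb, a tubulin folding cofactor gene, fell from 604.0 ± 26.9 to 499.0 ± 17.0 (SD, n = 2 each), with -0.27 as log2 fold change (limma adjusted p = 0.00388), about the same value as Polr2i. The part of Tbcb reads in the Polr2i value was not tested.

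The 5 subunits shared with RNA polymerases I and III gave 1 gene called higher and 0 lower, against 11.1% and 28.9% of all genes tested. Polr2l, which encodes the small zinc-binding RPB10, was read at 384 and 371 in the untreated and at 479 and 416 in the IAA libraries, a rise of 0.24 on the log2 scale (limma adjusted p = 0.0257; 0.438 in the authors' deposited table). Polr2k had the lowest value, -0.33 (limma adjusted p = 0.0535), and did not pass. Polr2e (-0.10), Polr2f (-0.04) and Polr2h (-0.04) did not pass in limma either, and 2 of the 5 genes were lower at an unadjusted p under 0.05. The median of these 5 was -0.04 (0.06 with median-of-ratios factors), between that of the 7 polymerase II-specific genes and that of all genes tested. Whether the shared and the specific genes differ as groups was not tested.

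Of 18 genes for the assembly and nuclear import of RNA polymerase II, 11 were lower and 1 higher by limma at the deposited scaling, against 28.9% and 11.1% over all genes tested. Their median log2 fold change was -0.21, against -0.11 over all genes. Median-of-ratios factors gave 6 lower calls and 2 higher, against 20.5% and 20.3% over all genes, and the medians were -0.11 and -0.01. Pih1d1, a subunit of the R2TP co-chaperone complex, went from 290.0 ± 17.0 to 166.0 ± 2.83 (SD, n = 2 each), with -0.80 as log2 fold change (limma adjusted p = 3.905e-06). Rpap2, a phosphatase of the carboxy-terminal domain that also serves import, fell by 0.50 and Rpap3, the R2TP scaffold, by 0.44 on the log2 scale. Polr2m, which encodes a protein that binds the assembled polymerase, did not pass (-0.11; limma adjusted p = 0.0747).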

How the data were processed

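The library columns, 1 for each of 4 libraries, hold normalised read counts. The authors deposited read counts divided by 1 factor per library and rounded, as worked out from the values. The deposited mean is a signal, their mean before rounding. From it factors of 0.88, 0.87 (untreated), 0.98 and 0.95 (IAA) and whole reads were recovered for 100.0% of genes (tolerance 0.001). What the factors derive from (mouse reads or the Drosophila spike-in) is not given in the labels or the file. The log2 fold changes, Wald scores, p-values and labels deposited by the authors are named as theirs. Tools listed, with no role, in the submitters' processing notes are featureCounts, STAR, Bowtie2, cutadapt 1.18, SAMtools, DESeq2 and deepTools, and the builds are mm10 and dm6.

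Genes with a mean of at least 10 entered limma 3.58.1 (R 4.3.3) as log2(value + 1), fitted across all genes (empirical Bayes trend, Benjamini-Hochberg over all genes, threshold 0.05). Such fold changes understate changes of low genes. The limma code was tested on simulated data, which checks the code and not the calls made here. Groups came from the sample titles. Exons and gene coordinates are from GENCODE M21 on GRCm38 (30214 of 30282 gene IDs matched), and start-proximal windows from RefSeq starts on GRCm38.p6. Members and lists were chosen with earlier results of these data known. Named genes were all members and shared subunits, the 3 called genes of each other list with the largest change, and the 5 nearest to Polr2c; overlapping neighbours, Polr2m, Polr1d, Pou5f1 and Col3a1 were added after their values were seen. Alternatives varied thresholds, filter, pseudocount, scaling, length, test, left-out library and replicate block. Unrounded values and the principal transcript length were added after seeing the data.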

Additional observations from a re-analysis of the deposited data

How the results depend on the processing

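The main limma fit called 4 members higher and 1 lower, beside 1650 and 4312 of the 14928 genes tested. With no filter on low values the counts were 1 and 0 members, beside 179 and 638 of 30282 genes. In the authors' deposited test they were 1 and 0, beside 284 and 1100 of its 11495 genes with an adjusted p. A threshold of 0.01 gave 4 and 0 members (1037 genes higher), median-of-ratios factors 5 and 0 (3036 genes higher) and library totals 5 and 0 (3083 genes higher), the added member being Polr2b. Without any 1 library, limma called 0 members and 0 genes in either direction (range 0 to 0), although 2 to 4 members and 4734 to 5070 genes had an unadjusted p under 0.05; the lone library was assumed to vary like the other group. With the replicate number as a replicate block the counts were 4 and 1 members (1647 and 4311 genes), and the deviations of same-numbered libraries correlated at 0.002 over genes, and the numbers were not taken to pair libraries. Among the 112 values of single members under 16 alternatives, 79 kept their side of the threshold, 31 lost the call, 2 gained it and 0 called values changed sign. The cause of these shifts was not tested, except that each left-out library also removes a degree of freedom. Depth limits Polr2i and Polr2j most, read 223 to 379 times per library.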

Other observations

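Subunits of the other nuclear polymerases moved in both directions. Of 6 genes specific to RNA polymerase I, 4 were higher and 0 lower by limma (0 lower at an unadjusted p under 0.05), with a median log2 fold change of 0.20, against 11.1% higher and 28.9% lower over all genes tested. With median-of-ratios factors the counts were again 4 and 0, against 20.3% and 20.5%. Cd3eap, which encodes an RNA polymerase I subunit, went from 299.0 ± 21.2 to 385.5 ± 6.36 normalised reads (SD, n = 2 each), a rise of 0.37 on the log2 scale, and Polr1f (0.23) and Polr1e (0.22) rose as well. The groups of Polr1f overlapped. Polr1c, which encodes a relative of RPB3 used by both RNA polymerases I and III, fell from 954.5 ± 20.5 to 737.0 ± 41.0 (-0.37). Its partner Polr1d, the counterpart of RPB11, did not pass (-0.08). Of 11 genes specific to RNA polymerase III, 1 was higher and 3 lower, the latter being Polr3gl (-0.42), Polr3b (-0.29) and Polr3c (-0.24). These counts lie near the 11.1% and 28.9% of all genes tested. With median-of-ratios factors 3 were higher and 2 lower, against 20.3% and 20.5%.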
